A study of Mus musculus with 4 samples.

Results

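The 10 genes described here are *Wnt5a*, *Ror1*, *Ror2*, *Fzd3*, *Fzd6*, *Vangl1*, *Vangl2*, *Celsr1*, *Prickle1* and *Scrib*, chosen by name from the 45706 genes in the count table as genes of Wnt5a signaling and of planar cell polarity. RNA-seq was performed on left lung lobes of C57BL/6 mouse embryos at embryonic day (E) 17, from 2 wild-type (*Myh10+/+*) mice and 2 mice homozygous for the ENU-induced missense allele L458R of *Myh10* (*Myh10-/-*). *Myh10* encodes a heavy chain of nonmuscle myosin II, and the allele was present in every cell of the mutant embryo, not in a chosen cell type. Each library is a whole lobe, with epithelium, mesenchyme, vessels and blood together, and the labels state neither litter nor sex.

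Planar cell polarity is the coordinated orientation of cells within the plane of a tissue. In its core module, frizzled receptors with Dishevelled inside the cell, and Van Gogh-like (VANGL) proteins with PRICKLE, gather on opposite sides of each cell and are linked across the cell border by CELSR cadherins. WNT5A signals through ROR receptors and frizzleds to the same module without stabilizing β-catenin, and in the lung both pathways are known for their part in branching, in the shape and movement of cells, and in building the distal airways. Actomyosin, to which the MYH10 protein belongs, is a known effector of the pathway.

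All 10 genes were expressed in every lung, with 1225 (*Fzd3*) to 11411 (*Wnt5a*) reads counted over the 4 lungs, and all 10 passed the minimum mean of 5 counts. None of the 10 passed an adjusted p-value of 0.05 in either direction (edgeR's quasi-likelihood test with Benjamini-Hochberg adjustment over 18763 genes), where 308 genes, 1.64% of those tested, did so. Of all genes, 1.34% passed with a lower level and 0.298% with a higher level in *Myh10-/-* lungs. At an unadjusted p-value of 0.05, 1 of the 10 genes (*Fzd3*) passed, beside 16.5% of all genes and 3104 genes in number. The log2 fold change (*Myh10-/-* over *Myh10+/+*) was below 0 for 5 genes and above 0 for 5, and its median size without regard to sign was 0.06, beside 0.12 over all genes tested. Levels are given below as CPM, a gene's count relative to the total of its library after TMM scaling, and as RPKM, which also divides by exon length and is used where genes are compared. In bulk tissue, fewer cells of a type and less RNA per cell cannot be told apart.

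**Figure D1:**
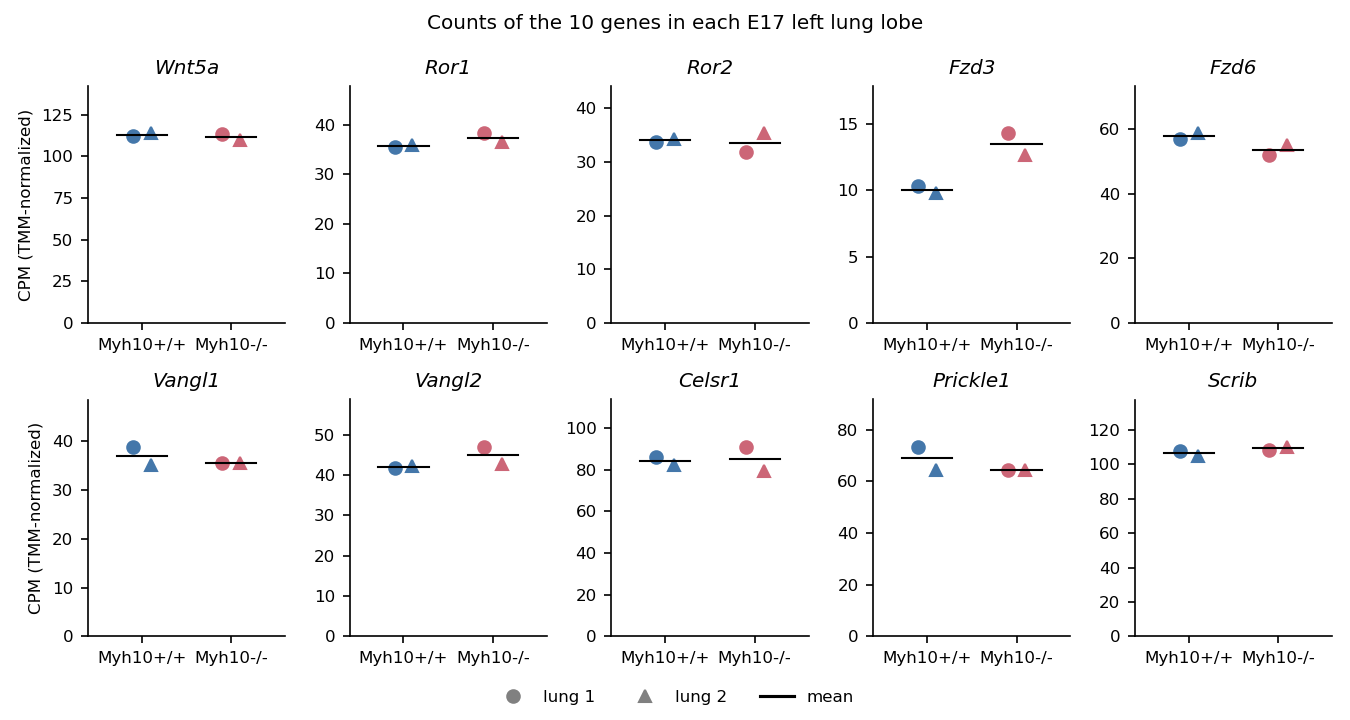
CPM (a gene's count relative to the TMM-scaled total of its library, each vertical axis starting at 0) of the 10 genes in each left lobe, with circles for lung 1, triangles for lung 2 and a line at the mean of each genotype. *Fzd3* lies at 10.3 and 9.77 CPM in *Myh10+/+* lungs and at 14.3 and 12.6 in *Myh10-/-* lungs, and the other 9 genes lie at close to the same height in both genotypes.

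*Wnt5a* encodes the secreted ligand. On the GRCm38 assembly it lies at chr14:28504750-28527448 on the plus strand, and 358 bp of its exons overlap the antisense gene *Gm2670*, whose own level was 1.21 to 1.62 CPM. In *Myh10+/+* lungs 1 and 2, *Wnt5a* had 112.0 and 113.8 CPM, and in *Myh10-/-* lungs 1 and 2 it had 113.4 and 109.5 CPM. The lungs of the genotypes overlapped, with the lowest value in *Myh10-/-* lung 2. The log2 fold change was -0.02 ± 0.05 (SE, n = 2 lungs per genotype), and its 95% interval of -0.13 to 0.10 corresponds to 0.911- to 1.07-fold (edgeR, adjusted p = 0.905). Per kilobase of exon, *Wnt5a* was the most abundant of the ligands examined, at 14.3 ± 0.247 RPKM (SD over 4 lungs), and its level was 1.94 and 1.89 times the summed level of *Wnt5b*, *Wnt11* and *Wnt4* in *Myh10+/+* lungs and 2.05 and 1.90 times in *Myh10-/-* lungs. These ratios overlapped (two-sided exact permutation test, p = 0.667, where 2 lungs against 2 allow no p below 0.333).

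*Ror1* and *Ror2* encode receptor tyrosine kinases that bind WNT5A. *Ror1*, at chr4:100095791-100444765 on the plus strand, had 35.6 and 35.9 CPM in *Myh10+/+* lungs 1 and 2, against 38.2 and 36.4 CPM in *Myh10-/-* lungs 1 and 2. The *Myh10-/-* lungs were both above the *Myh10+/+* lungs, by a margin that did not pass the test (log2 fold change 0.06 ± 0.08 SE, 95% interval -0.10 to 0.23, adjusted p = 0.727 in edgeR). *Ror2*, at chr13:53109312-53286124 on the minus strand, had 33.7 and 34.3 CPM in *Myh10+/+* lungs 1 and 2, against 31.7 and 35.3 CPM in *Myh10-/-* lungs 1 and 2. Here the *Myh10-/-* lungs held both the lowest and the highest value (log2 fold change -0.02 ± 0.08 SE, 95% interval -0.19 to 0.15, adjusted p = 0.938 in edgeR). The level of *Ror1* per exon length was 0.777 and 0.770 of that of *Ror2* in *Myh10+/+* lungs and 0.887 and 0.760 of it in *Myh10-/-* lungs, so the balance of the receptors overlapped between genotypes (exact permutation test, p = 1).

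The most alike 75 bases (the read length) of the coding sequences of *Ror1* and *Ror2* show how far reads from coding exons could be told apart. The *Ror1* window spans coding bases 562 to 636 in exons 5 and 6 (genomic span chr4:100407892-100409739, plus strand, intron included), and the *Ror2* window coding bases 574 to 648 in exons 5 and 6 (chr13:53118980-53121712, minus strand). Sequences are GENCODE M21 transcripts on GRCm38, 5′ to 3′, and capitals mark the 12 bases that differ between the genes, which leaves 84% of the window identical.
*Ror1*: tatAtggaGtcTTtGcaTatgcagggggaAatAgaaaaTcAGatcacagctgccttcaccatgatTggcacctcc
*Ror2*: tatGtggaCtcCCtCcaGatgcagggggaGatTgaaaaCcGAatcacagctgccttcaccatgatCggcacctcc
The longest stretch identical between the transcripts was 23 bases, and no 75-base window of either gene occurred in a transcript of another gene.

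*Fzd3* and *Fzd6* encode the frizzled receptors best known for planar polarity in mammals, each with a membrane-spanning domain that recruits Dishevelled. *Fzd3*, at chr14:65192449-65262463 on the minus strand, had 10.3 and 9.77 CPM in *Myh10+/+* lungs 1 and 2 (236 and 186 reads), against 14.3 and 12.6 CPM in *Myh10-/-* lungs 1 and 2 (397 and 406 reads). Both *Myh10-/-* lungs were above both *Myh10+/+* lungs, and on the log2 scale the gene had the widest difference of the 10. The log2 fold change was 0.42 ± 0.11 (SE, n = 2 per genotype), a 1.34-fold higher level with a 95% interval of 1.14 to 1.57. The unadjusted p-value of 0.00187 ranked 478 among the 18763 genes and did not pass after adjustment (edgeR, adjusted p = 0.0733).

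The estimate for *Fzd3* stayed above 0 in all 17 alternative settings, from 0.32 to 0.51, and passed the threshold in 3 of them. These were the fit without a filter on low counts (adjusted p = 0.00532 in edgeR), the fit with the replicate number as a block (adjusted p = 0.0326) and the fit without *Myh10-/-* lung 2 (log2 fold change 0.51, adjusted p = 0.0133). In these fits 4.07%, 3.78% and 8.85% of all genes passed, in the same order. Of the other 14, the DESeq2 Wald test gave no adjusted value (unadjusted p = 0.0119), and the rest did not pass, with adjusted p-values up to 0.266. With an offset for GC content and exon length the log2 fold change was 0.32 (adjusted p = 0.113). The longest transcript of *Fzd3* had the lowest GC content of the 10, at 40.3%, and the gene had the greatest summed exon length, at 12804 bp.

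**Figure D2:**
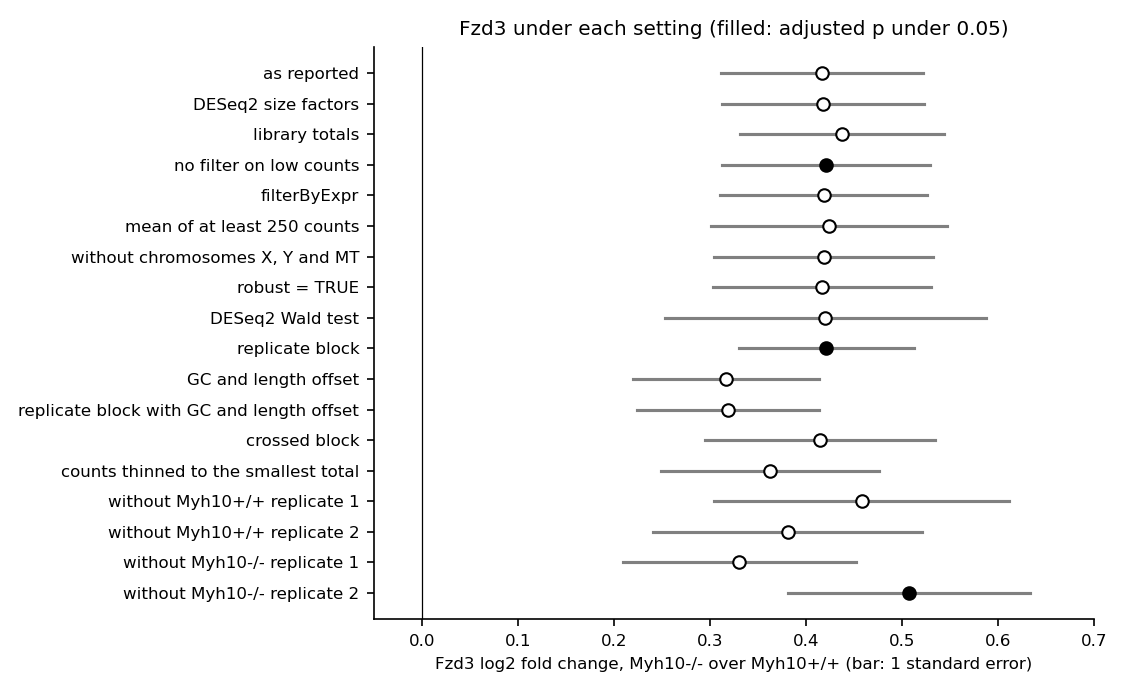
Log2 fold change of *Fzd3* (*Myh10-/-* over *Myh10+/+*, horizontal axis) as reported and under each of 17 alternative settings, with bars of 1 standard error and filled points where the adjusted p-value was under 0.05 (the DESeq2 test gave no adjusted value). All points lie between 0.32 and 0.51, and 3 are filled.

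*Fzd6*, at chr15:39006034-39038188 on the plus strand, had 57.0 and 58.7 CPM in *Myh10+/+* lungs 1 and 2, against 52.1 and 55.1 CPM in *Myh10-/-* lungs 1 and 2. Both *Myh10-/-* lungs were lower, the opposite order to *Fzd3*, and the difference did not pass (log2 fold change -0.11 ± 0.07 SE, 95% interval -0.27 to 0.05, adjusted p = 0.491 in edgeR). The level of *Fzd6* per exon length was 14.7 and 16.0 times that of *Fzd3* in *Myh10+/+* lungs and 9.71 and 11.6 times in *Myh10-/-* lungs. *Fzd3* was higher and *Fzd6* lower in both *Myh10-/-* lungs than in both *Myh10+/+* lungs, so these ratios could not overlap. The exact permutation test then had to give p = 0.333, the smallest that 4 lungs allow, and adds nothing to those differences. Of the summed level of all 10 frizzled genes, *Fzd3* made up 0.773% and 0.750% in *Myh10+/+* lungs and 1.10% and 0.974% in *Myh10-/-* lungs, while *Fzd6* made up 11.4% and 12.0% against 10.7% and 11.3%. *Fzd3* was thus a minor frizzled transcript of the E17 lung in every library, and 152 bp of *Fzd6* exons overlap *Gm26704*, a transcript from the opposite strand with 0.755 to 1.18 CPM. Of the 4251 windows of 75 bases along *Fzd6*, 78 (1.84%) also occurred in *Gm26704*, with both strands searched.

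The closest 75-base windows of *Fzd3* (coding bases 866 to 940 in exon 4, chr14:65235378-65235452, minus strand) and *Fzd6* (coding bases 854 to 928 in exon 4, chr15:39031294-39031368, plus strand) differ at 14 bases, in capitals, and 81.3% of the window is identical.
*Fzd3*: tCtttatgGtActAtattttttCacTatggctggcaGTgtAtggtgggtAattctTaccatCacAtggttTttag
*Fzd6*: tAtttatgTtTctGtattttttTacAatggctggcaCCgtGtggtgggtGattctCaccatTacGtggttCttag
The next stretches code for the cytoplasmic motif just after the last membrane pass through which frizzleds bind Dishevelled, with its defining codons in capitals, and are shown because the motif links both receptors to the core module. They lie at coding bases 1489 to 1536 of *Fzd3* (chr14:65212092-65212139, minus strand, exon 5) and 1477 to 1524 of *Fzd6* (chr15:39033934-39033981, plus strand, exon 5).
*Fzd3* motif: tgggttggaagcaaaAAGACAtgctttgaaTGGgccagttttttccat
*Fzd6* motif: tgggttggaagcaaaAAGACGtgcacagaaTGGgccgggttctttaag

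*Vangl1* and *Vangl2* encode the membrane proteins of the opposite side of the polarized cell. *Vangl1*, at chr3:102153583-102204693 on the minus strand, had 38.8 and 35.1 CPM in *Myh10+/+* lungs 1 and 2, against 35.5 and 35.5 CPM in *Myh10-/-* lungs 1 and 2. The *Myh10-/-* values lay between those of the wild-type lungs (log2 fold change -0.06 ± 0.08 SE, 95% interval -0.23 to 0.11, adjusted p = 0.759 in edgeR). *Vangl2*, at chr1:172000960-172028444 on the minus strand, had 41.9 and 42.3 CPM in *Myh10+/+* lungs 1 and 2, against 47.0 and 42.8 CPM in *Myh10-/-* lungs 1 and 2. Both *Myh10-/-* lungs were higher, *Myh10-/-* lung 2 by less than 1 CPM, and the difference did not pass (log2 fold change 0.09 ± 0.08 SE, 95% interval -0.08 to 0.26, adjusted p = 0.595 in edgeR). The ratio of *Vangl1* to *Vangl2* per exon length was 0.904 and 0.812 in *Myh10+/+* lungs and 0.738 and 0.810 in *Myh10-/-* lungs, with 1 pair of lungs nearly equal (exact permutation test, p = 0.333).

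The closest 75-base windows of the *Vangl* genes lie at coding bases 1263 to 1337 of *Vangl1* in exons 7 and 8 (genomic span chr3:102158481-102163356, minus strand) and 1368 to 1442 of *Vangl2* in exons 8 and 9 (chr1:172004846-172006147, minus strand). Capitals mark the 12 bases that differ, and the longest identical stretch of the transcripts was 21 bases.
*Vangl1*: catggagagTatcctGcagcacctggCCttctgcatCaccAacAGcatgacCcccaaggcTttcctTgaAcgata
*Vangl2*: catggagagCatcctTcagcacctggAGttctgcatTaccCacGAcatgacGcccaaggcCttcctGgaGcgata
Of the 6457 windows of 75 bases along *Vangl1*, 1 also occurred in other genes, and 8 bp of its exons overlap the antisense gene *Gm16160* (0.359 to 1.63 CPM). No window of *Vangl2* was shared, though its 2275 windows came from 1 transcript that is shorter than the gene's 6990 bp of exons.

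*Celsr1* encodes the flamingo-type cadherin that joins the complexes of neighboring cells, and lies at chr15:85898929-86033777 on the minus strand. *Celsr1* had 86.0 and 82.1 CPM in *Myh10+/+* lungs 1 and 2, against 90.9 and 79.4 CPM in *Myh10-/-* lungs 1 and 2. The *Myh10-/-* lungs held the highest and the lowest value of the 4, and the spread between them (SD 8.19) exceeded the difference of the means, 84.1 against 85.2 (log2 fold change 0.02 ± 0.07 SE, 95% interval -0.14 to 0.18, adjusted p = 0.940 in edgeR). *Celsr1* was the most abundant of its family per exon length, at 2.41 and 2.44 times *Celsr2* in *Myh10+/+* lungs and 2.31 and 2.22 times in *Myh10-/-* lungs. The ratio was lower in both *Myh10-/-* lungs, and the exact permutation test gave the smallest p it can, 0.333.

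*Prickle1* and *Scrib* encode cytoplasmic partners of VANGL proteins. *Prickle1*, at chr15:93499114-93595891 on the minus strand, had 73.4 and 64.4 CPM in *Myh10+/+* lungs 1 and 2, against 64.4 and 64.6 CPM in *Myh10-/-* lungs 1 and 2. Of the 4 lungs, 3 lay within 1 CPM of each other and *Myh10+/+* lung 1 stood above them (log2 fold change -0.10 ± 0.08 SE, 95% interval -0.26 to 0.07, adjusted p = 0.575 in edgeR). Without *Myh10+/+* lung 1 the log2 fold change was 0.00265, and without *Myh10+/+* lung 2 it was -0.19. *Scrib*, at chr15:76047158-76069784 on the minus strand, had 107.6 and 105.1 CPM in *Myh10+/+* lungs 1 and 2, against 108.5 and 110.1 CPM in *Myh10-/-* lungs 1 and 2. Its *Myh10-/-* values were both slightly higher (log2 fold change 0.04 ± 0.05 SE, 95% interval -0.08 to 0.16, adjusted p = 0.762 in edgeR).

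The ends of these reading frames show how the proteins are tied to one another and to the membrane. The C-terminus of both VANGL proteins binds the PDZ domains of SCRIB, and that of PRICKLE1 carries a signal for prenylation, a lipid anchor. Capitals mark the last 4 codons before the stop codon, at coding bases 1537 to 1581 of *Vangl1* (chr3:102158237-102158281, exon 8), 1642 to 1686 of *Vangl2* (chr1:172004602-172004646, exon 9) and 2455 to 2499 of *Prickle1* (chr15:93500447-93500491, exon 8), all on the minus strand.
*Vangl1* end: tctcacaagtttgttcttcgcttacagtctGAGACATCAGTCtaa
*Vangl2* end: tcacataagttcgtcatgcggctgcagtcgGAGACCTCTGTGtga
*Prickle1* end: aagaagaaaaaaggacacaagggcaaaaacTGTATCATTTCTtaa

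Between genotypes, the CPM values did not overlap for 5 of the 10 genes (*Ror1*, *Fzd3*, *Vangl2* and *Scrib* higher, *Fzd6* lower in *Myh10-/-*), beside 48.3% of all genes tested. For the 9 genes other than *Fzd3*, the 95% intervals reached no lower than 0.832-fold and no higher than 1.20-fold, and none of the 9 passed in any alternative setting.

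**Figure D3:**
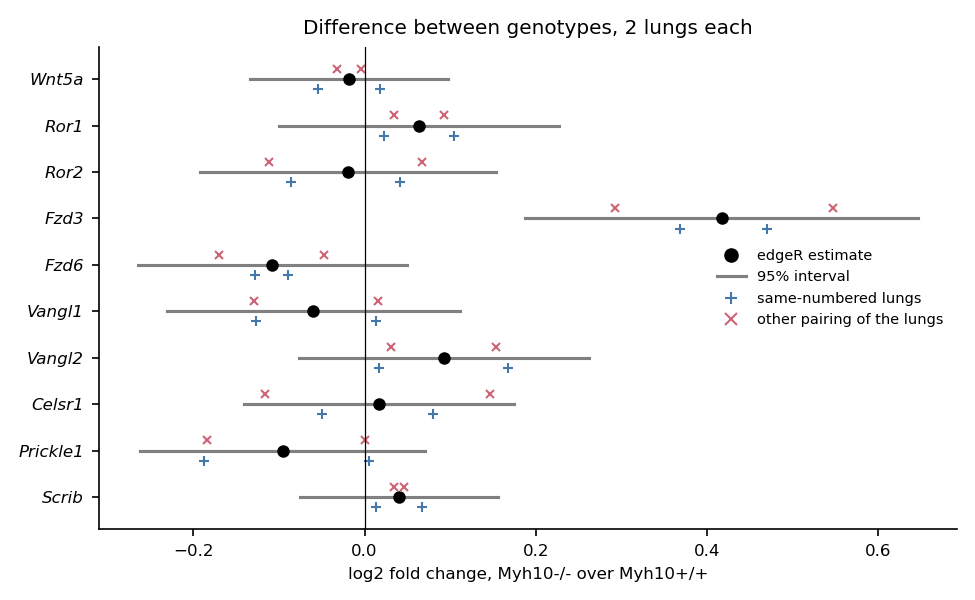
Log2 fold change of each gene (horizontal axis, *Myh10-/-* over *Myh10+/+*) with its 95% interval from edgeR, and the differences between single lungs paired by the same number (plus signs) or by the other number (crosses). The interval of *Fzd3*, 0.19 to 0.65, lies above 0, and the intervals of the other 9 genes include 0.

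Per exon length and over the 4 lungs, *Scrib* was the most abundant of the 10 at 16.7 ± 0.327 RPKM (SD), followed by *Prickle1* at 15.4 ± 1.03 RPKM, whose range overlapped that of *Scrib*. *Wnt5a* at 14.3 RPKM and *Fzd6* at 11.6 ± 0.581 RPKM came next, each apart from its neighbors in all lungs. *Ror2* (7.96 ± 0.353 RPKM) and *Celsr1* (7.69 ± 0.457 RPKM) overlapped, as did *Ror1* (6.34 ± 0.208 RPKM) and *Vangl2* (6.22 ± 0.342 RPKM). *Vangl1* (5.06 ± 0.238 RPKM) and *Fzd3* (0.917 ± 0.163 RPKM) were the least abundant, each below the gene before it in every lung.

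**Figure D4:**
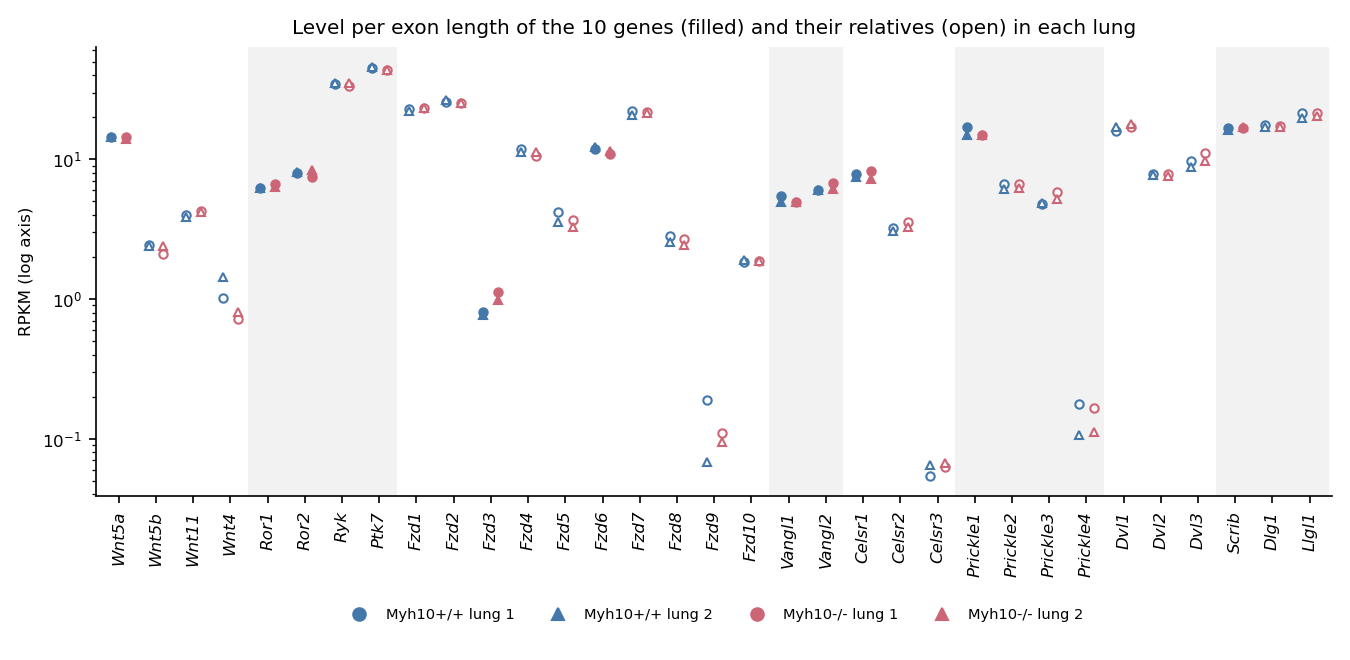
Level per exon length (RPKM, log axis) of the 10 genes (filled) and of related genes (open) in each lung, grouped by family on shaded bands, with blue for *Myh10+/+*, red for *Myh10-/-*, circles for lung 1 and triangles for lung 2. *Fzd3* lies near 1 RPKM, below every other frizzled shown except *Fzd9*.

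Of 89 further genes of the pathway in 8 lists, 85 were tested, 41 with a log2 fold change below 0 and 44 above, and 1 passed the adjusted threshold. Of all genes tested, 1.64% passed, with 9281 below 0 and 9482 above. The pathway gene that passed was *Pard6b*, which encodes a subunit of the PAR apical polarity complex, in the list of Scribble-complex and apical-basal polarity genes. *Pard6b* had 55.6 and 56.4 CPM in *Myh10+/+* lungs 1 and 2, against 38.8 and 38.2 CPM in *Myh10-/-* lungs 1 and 2. It was lower in both *Myh10-/-* lungs by a margin far wider than the spread within a genotype (log2 fold change -0.54 ± 0.07 SE, 95% interval -0.70 to -0.38, adjusted p = 0.00771 in edgeR), and it passed in all 17 alternative settings. The median log2 fold change of the 22 genes of its list was -0.02, with 14 below 0 and 8 above. Their values ran from -0.54 (*Pard6b*) to 0.83. At an unadjusted p-value of 0.05 in edgeR, 3 of the 22 were lower and 1 higher. Of all 18763 genes tested, 1693 were lower and 1411 higher at that p-value. *Llgl2*, which encodes a basolateral partner of the Scribble complex and is named here after its values were seen, had 127.1 and 127.5 CPM in *Myh10+/+* lungs 1 and 2, against 105.6 and 111.7 CPM in *Myh10-/-* lungs 1 and 2, without passing (log2 fold change -0.23, adjusted p = 0.0575). *Lin7c*, which encodes a scaffold protein and had the highest RPKM of the list at 37.7, had a log2 fold change of 0.02.

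Markers of epithelium, the tissue in which *Pard6b* is known to act, were in part lower as well. Of 8 epithelial markers, 3 passed as lower in *Myh10-/-* lungs, beside 1.34% of all genes tested. These were *Cdh1* (-0.30, adjusted p = 0.0178), *Krt8* (-0.33, adjusted p = 0.00984) and *Krt19* (-0.35, adjusted p = 0.0196), on the log2 scale in edgeR. *Cldn6* lay the other way, with 48.9 and 48.7 CPM in *Myh10+/+* lungs, against 62.4 and 52.0 CPM in *Myh10-/-* lungs, without passing (0.23, adjusted p = 0.225). The epithelial identity genes *Epcam* (-0.04, adjusted p = 0.738) and *Nkx2-1* (0.02, adjusted p = 0.881) did not pass. The summed CPM of the 8 markers was 1601 and 1617 in *Myh10+/+* lungs and 1426 and 1455 in *Myh10-/-* lungs, no marker was at 0, and the part of epithelial content in the value of *Pard6b* was not tested.

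Among the other noncanonical Wnt ligands, 3 of 4 were tested and none passed. Their median of -0.09 was -0.00287 without *Myh10-/-* lung 1 and -0.19 without *Myh10-/-* lung 2. *Wnt4*, a ligand of several developing organs, had 4.23 and 5.99 CPM in *Myh10+/+* lungs 1 and 2, against 3.02 and 3.39 CPM in *Myh10-/-* lungs 1 and 2. Both *Myh10-/-* lungs were lower, without passing (log2 fold change -0.66 ± 0.20 SE, unadjusted p = 0.00637, adjusted p = 0.125 in edgeR), at a count of only 404 reads over 4 lungs. *Wnt11*, the most abundant of the 3 at 4.06 RPKM, had a log2 fold change of 0.10. None of 13 further receptors and co-receptors passed (median -0.04), and the lowest unadjusted p-value among them was 0.106, for the glypican gene *Gpc4* (0.14). *Gpc3*, a glypican gene at 106.6 RPKM, had a log2 fold change of -0.04. Of the secreted Wnt inhibitors, 4 were tested and none passed, with a median of 0.18 that was 0.06 with either stricter filter on low counts. *Sfrp2*, which encodes a secreted frizzled-related protein, had 18.3 and 16.3 CPM in *Myh10+/+* lungs, against 22.4 and 20.3 CPM in *Myh10-/-* lungs (log2 fold change 0.30 ± 0.09 SE, adjusted p = 0.115 in edgeR). It was higher in both *Myh10-/-* lungs and the most abundant of its list at 8.99 RPKM.

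The remaining core components, which include the relatives of *Celsr1* and *Prickle1* and the Dishevelled genes, had 0 of 9 genes past the threshold, with 7 of 9 above 0 and a median log2 fold change of 0.11, beside 0.00179 over all genes. The median was 0.0475 without *Myh10-/-* lung 1 and 0.18 without *Myh10-/-* lung 2. *Prickle3* had the lowest p-value of them, at 23.4 and 23.9 CPM in *Myh10+/+* lungs and 28.4 and 25.5 CPM in *Myh10-/-* lungs. It was higher in both *Myh10-/-* lungs without passing (log2 fold change 0.18 ± 0.08 SE, adjusted p = 0.260 in edgeR). *Dvl1*, the most abundant Dishevelled gene at 16.9 RPKM, had a log2 fold change of 0.08. *Prickle2* reached 0.391 and 0.411 of the *Prickle1* level per exon length in *Myh10+/+* lungs and 0.450 and 0.422 in *Myh10-/-* lungs, higher in both (exact permutation test, p = 0.333).

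No gene passed among 11 genes of Vangl trafficking and turnover (median 0.02), where *Gipc1*, an adaptor gene, had the highest level at 53.8 RPKM (log2 fold change -0.05). Likewise 0 of 8 genes passed in the Fat and Dachsous group, a second polarity system of giant cadherins (median 0.05). Its lowest p-value belonged to *Fat4*, with 106.2 and 98.4 CPM in *Myh10+/+* lungs, against 119.3 and 110.8 CPM in *Myh10-/-* lungs. These lungs did not overlap, and the log2 fold change of 0.17 ± 0.06 SE did not pass (adjusted p = 0.190 in edgeR), while *Lix1l*, the most abundant at 29.5 RPKM, was at 0.00357. Of 15 effector genes that link polarity to the cytoskeleton and cilia, 0 passed (median 0.06). *Daam2*, which encodes a formin downstream of Dishevelled, had 155.1 and 139.6 CPM in *Myh10+/+* lungs 1 and 2, against 171.8 and 165.5 CPM in *Myh10-/-* lungs 1 and 2. It was higher in both *Myh10-/-* lungs (log2 fold change 0.19 ± 0.06 SE, unadjusted p = 0.00531, adjusted p = 0.115 in edgeR), and the GTPase gene *Cdc42*, at 169.6 RPKM the most abundant, had a log2 fold change of -0.06.

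Some of these calls turned with the setting. Without a filter on low counts 5 of the pathway genes passed (*Daam2*, *Llgl2*, *Sfrp2* and *Wnt4* beside *Pard6b*), as did 4.07% of all genes in that fit. With the replicate number as a block 4 passed (the same without *Wnt4*), beside 3.78% of all genes. Without *Myh10-/-* lung 2 there were 6 (*Daam2*, *Fat1*, *Llgl2*, *Rock2* and *Sfrp2* beside *Pard6b*), beside 8.85% of all genes. *Wnt4* also passed without *Myh10+/+* lung 1, *Llgl2* with robust = TRUE and *Daam2* with the GC and length offset. Without *Myh10+/+* lung 2, the log2 fold change of *Wnt4* was -0.40 (adjusted p = 0.617 in edgeR) and that of *Daam2* was 0.12 (adjusted p = 0.665), and without *Myh10-/-* lung 1 that of *Prickle3* was 0.11 (adjusted p = 0.788).

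**Figure D5:**
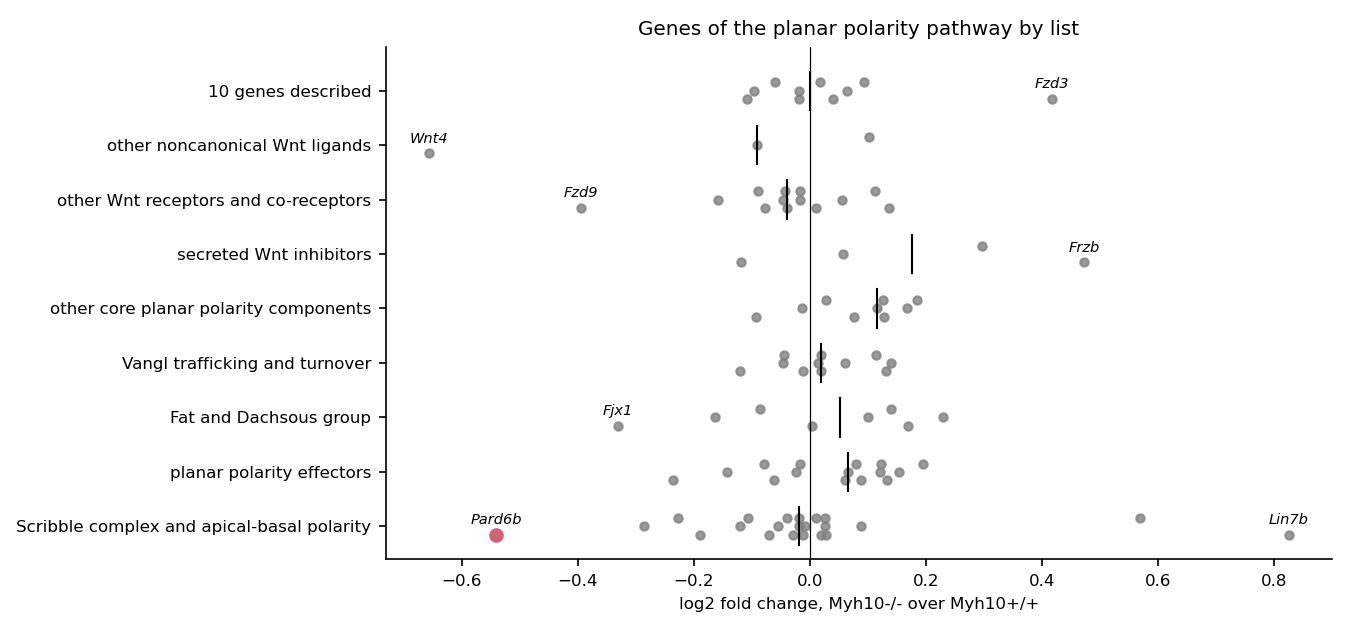
Log2 fold change (horizontal axis, *Myh10-/-* over *Myh10+/+*) of the 10 genes and of each tested gene of the 8 pathway lists, 1 point a gene, with a black line at each median and the gene at an adjusted p-value under 0.05 in red. *Pard6b* at -0.54 is the red point, and most genes lie within 0.2 of 0.

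The 4 libraries held 19116971 to 32055306 counts on genes, the *Myh10-/-* libraries being the deeper ones. *Myh10* itself, whose mutation changes a residue and so need not change its count, was at 505.3 and 504.2 CPM in *Myh10+/+* lungs, against 539.5 and 513.1 CPM in *Myh10-/-* lungs (log2 fold change 0.06, adjusted p = 0.662 in edgeR), and does not check the genotype labels. *Xist* was high in *Myh10+/+* lung 1 and *Myh10-/-* lung 2, and *Ddx3y* in the other 2 lungs, so each genotype held 1 lung of each sex. The lung marker *Nkx2-1* was at 434.0 to 454.6 CPM. Among markers of other cell types, the genes called lower were 0 of 8 mesenchymal, 0 of 5 smooth muscle, 0 of 6 endothelial, 0 of 5 leukocyte, 1 of 4 mesothelial (*Msln*), 3 of 4 cardiac muscle (*Myh6*, *Myl7* and *Tnnt2*), 2 of 6 erythroid (*Hba-a2* and *Alas2*) and 0 of 3 neural or glial genes, and none was called higher. Of all genes tested, 1.34% were called lower and 0.298% higher. Values below 0 were found for 6 of 6 endothelial, 5 of 5 smooth muscle, 4 of 5 leukocyte and 6 of 6 erythroid markers. Over all genes tested, 9281 of 18763 were below 0. At an unadjusted p under 0.05 (edgeR), 4 endothelial, 0 smooth muscle, 2 leukocyte and 3 erythroid markers were lower. The same held for 1693 of the 18763 genes tested. The summed mesenchymal markers were at 6905 and 6932 CPM in *Myh10+/+* lungs, against 6699 and 6846 CPM in *Myh10-/-* lungs.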

How the data were processed

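RNA-seq was performed on left lung lobes at E17 from 2 *Myh10+/+* and 2 *Myh10-/-* mice, grouped by the genotype in the sample labels. The deposited table holds, for each Ensembl gene and lung, the number of reads as raw counts made by the authors. Per the study's methods and the submitters' processing notes, the authors made stranded mRNA libraries, trimmed single-end reads, aligned them to GRCm38 with STAR 2.4.0a and counted reads on exons with featureCounts 1.5.1. Per the same methods, reads that overlapped several genes were left out. Whether counting used strand is not given in the sources used here. It is thus not known whether reads in the overlaps of *Wnt5a*, *Fzd6* and *Vangl1* with antisense genes were counted or left out.

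Genes whose mean over the lungs was 5 counts or more were tested with edgeR 4.0.16 (TMM, glmQLFit with robust = FALSE, glmQLFTest) in R 4.3.3, with Benjamini-Hochberg adjustment. CPM uses TMM-scaled totals, and RPKM divides it by the summed length of all exons of a gene in GENCODE M21. That length can exceed the length of the transcripts expressed, so the order of genes by RPKM depends on the annotation. Library totals ranged from 19116971 to 32055306 counts, and with 2 lungs per genotype the number of lungs limits the precision. Nothing states whether lungs of a genotype came from separate litters, so p-values measure the spread between these lungs. In the test the spread of each gene was moderated by that of the other genes (12.1 degrees of freedom for the 10 genes). Standard errors, intervals and p-values thus do not rest on a gene's own values alone.

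The 10 genes and all lists were chosen with earlier results of these data known. Named genes are the 10 genes, *Myh10*, and from each pathway list every gene at an adjusted p-value under 0.05 (where none, the gene with the lowest p-value) and the gene with the highest RPKM. 1 gene that this rule names is not reported here. Of the 89 symbols, 3 are held in the table under another name (*Cplane1*, *Cplane2* and *Patj*) and were matched through the GENCODE M21 symbol of their identifier or a RefSeq synonym. Ratios between genes were compared with two-sided exact permutation tests. Alternatives were other scaling factors, other filters on low counts, robust = TRUE, DESeq2 1.42.0, leaving out chromosomes X, Y and MT, the replicate number as a block, an offset for GC content and exon length (loess, span 0.3), and leaving out each lung. Crossed pairing and thinned counts were added after the data were seen.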

Additional observations from a re-analysis of the deposited data

How the results depend on the processing

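Over 17 alternatives, 158 of 170 fold changes of the 10 genes kept the reported direction, and 12, in 5 genes, were reversed. Most alternatives refit the same lungs and so are not separate tests of direction. No gene of the 10 but *Fzd3* passed in any alternative. As reported, 252 genes passed as lower and 56 as higher (81.8% lower), and 67.6% were lower with library totals as the scaling, which gave 112 higher genes and log2 fold changes of 0.00160 for *Wnt5a* and 0.000703 for *Ror2*. Without a filter on low counts 688 genes were lower, 474 higher and 1 of the 10 genes higher (*Fzd3*), and with a mean of at least 250 counts 167 were lower. The genes higher numbered 90 without chromosomes X, Y and MT, 135 with robust = TRUE, 92 with DESeq2 and 93 with the GC and length offset, which put *Ror2* at 0.0378. Thinned counts gave 0.0271 for *Ror2* and -0.00859 for *Celsr1*.

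The replicate number does not pair the lungs by any label, and deviations of same-numbered lungs correlated at -0.14 over 18724 genes (-0.02 without X, Y and MT). With the replicate block 466 genes were lower and 244 higher, with 1 of the 10 higher (*Fzd3*), and with block and offset together 616 and 283, with *Ror2* at 0.0350 and 6 pathway genes called (*Daam2*, *Llgl2*, *Pard6b*, *Rhoa*, *Sfrp2* and *Wdpcp*, beside 4.79% of all genes). The crossed pairing, which joins lungs of the same sex, gave 320 lower and 95 higher genes.

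Leaving out 1 lung in turn, where the lone lung is assumed to vary like the other genotype, gave 175 to 875 lower and 31 to 768 higher genes, the highest of both without *Myh10-/-* lung 2, and 0 to 1 of the 10 genes higher. Fold changes then ranged from -0.0412 to 0.00881 for *Wnt5a*, -0.0966 to 0.0569 for *Ror2*, -0.128 to 0.0142 for *Vangl1*, -0.0816 to 0.115 for *Celsr1* and -0.187 to 0.00265 for *Prickle1*. Over all alternatives the list medians ranged from -0.19 to 0.11 for ligands (0.11 with a mean of at least 250 counts, which removes *Wnt4* and *Wnt5b*), -0.04 to 0.00031 for receptors, 0.06 to 0.30 for inhibitors, 0.05 to 0.18 for core components, -0.00383 to 0.05 for Vangl trafficking, 0.00396 to 0.17 for Fat and Dachsous, 0.03 to 0.09 for effectors and -0.03 to 0.00141 for apical-basal genes. The causes of the other changes were not tested. With 2 lungs per genotype, differences of any size within the intervals given remain possible. A gene that did not pass is not thereby shown to be unchanged.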
